A study of Mus musculus with 10 samples.

Results

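The genes Flt3, Cst3, Lck and Pecam1, named for dendritic cells, T cells and endothelium, were followed in splenic B cells labelled as knockout or wild type for LSD1, as 4 of the 9690 genes in a table of mRNA molecules per cell. They were chosen by their values in these same libraries, being higher in knockout than in wild-type marginal zone B cells, so that difference is described here and not tested. RNA was sequenced from unstimulated B cells sorted from spleens of female C57BL/6J mice. The groups were knockout marginal zone B cells (MZB, 2 libraries), wild-type MZB (3 libraries), knockout follicular B cells (FoB, 3 libraries) and wild-type FoB (2 libraries). MZB were sorted as B220+ cells with high CD21 and CD1d and without CD23, and FoB as B220+ cells with CD23, intermediate CD21 and no CD1d. Both sorts left out cells positive for Thy1.1, F4/80, CD11b, CD93 or GL7. The knockout is labelled as a loss of LSD1; the sources used here give neither the allele, any Cre driver nor the age of the mice. Whether each library is a mouse of its own is not stated in the labels, and the p-values here reflect the spread between libraries alone, which may be technical.

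LSD1, encoded by Kdm1a, removes methyl groups from lysine 4 of histone H3 and works mainly as a repressor in complexes with CoREST and histone deacetylases. Transcription factors such as Gfi1 bring these complexes to DNA, and in B cells Pax5 keeps many genes of other blood lineages low. Flt3 encodes the receptor tyrosine kinase for Flt3 ligand, which drives progenitors and dendritic cells and is repressed by Pax5 as B cells form. Cst3 encodes cystatin C, a secreted inhibitor of cysteine proteases that is abundant in dendritic cells. Lck encodes the Src family kinase that starts T cell receptor signalling. Pecam1 encodes CD31, an adhesion receptor with inhibitory ITIM motifs that is best known from endothelium and platelets and is also found on many leukocytes.

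RefSeq promoter entries (GRCm38.p6, the assembly of mm10) matched 3 of the 4 genes, Flt3, Cst3 and Lck, and are shown because these are the stretches next to the transcription starts of genes that were higher in the MZB libraries labelled knockout. Each line holds the 250 bases before a start, all on the minus strand, and capitals mark AATC or its complement GATT, the core that Gfi1 recognises.
Flt3, chr5:147400490-147400739: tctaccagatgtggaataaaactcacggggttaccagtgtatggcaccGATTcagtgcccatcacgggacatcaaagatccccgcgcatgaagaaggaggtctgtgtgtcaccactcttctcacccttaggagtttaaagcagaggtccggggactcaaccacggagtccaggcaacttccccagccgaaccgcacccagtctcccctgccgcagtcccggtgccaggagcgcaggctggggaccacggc
Cst3, chr2:148875513-148875762: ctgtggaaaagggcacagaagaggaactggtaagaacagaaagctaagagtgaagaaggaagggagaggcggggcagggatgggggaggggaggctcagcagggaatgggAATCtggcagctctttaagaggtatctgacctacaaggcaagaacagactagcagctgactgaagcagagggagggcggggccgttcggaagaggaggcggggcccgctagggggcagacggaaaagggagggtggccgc
Lck, upstream start, chr4:129573642-129573891: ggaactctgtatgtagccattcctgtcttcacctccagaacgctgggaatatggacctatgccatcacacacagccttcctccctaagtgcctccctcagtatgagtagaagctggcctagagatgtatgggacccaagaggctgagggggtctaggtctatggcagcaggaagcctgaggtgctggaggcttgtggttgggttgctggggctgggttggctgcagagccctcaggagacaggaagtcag
Lck, downstream start, chr4:129558373-129558622: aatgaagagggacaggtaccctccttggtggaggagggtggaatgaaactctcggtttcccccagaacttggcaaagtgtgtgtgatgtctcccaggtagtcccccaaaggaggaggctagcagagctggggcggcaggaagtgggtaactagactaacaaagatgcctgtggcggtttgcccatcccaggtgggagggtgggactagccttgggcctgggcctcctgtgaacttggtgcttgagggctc
The Flt3 and Cst3 windows each held 1 AATC core, counted on both strands, and the Lck windows held 0. AATC was present in 69.0% of 32851 windows of this length before all RefSeq starts, and in 62.7% of the 9815 windows of genes in the table. GGAA, the core read by ETS factors, occurred 2 times in the Flt3 window, 7 times in the Cst3 window, and 6 and 3 times in the upstream and downstream Lck windows. It was present in 93.4% of all windows and 93.5% of those of table genes, with a median of 3 in both. The E-box CANNTG occurred once in the Flt3, Cst3 and downstream Lck windows. It was present in 66.2% of all windows and 56.7% of those of table genes. A match of these letters is a description of the window and not a binding site. The RNA values are per gene and do not separate the Lck starts.

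Over the 9690 genes of the table, the libraries held 4161051 to 6711847 reads, worked back from the deposited values, and the median gene had 184 to 319 of them. Reads of genes without a row are not included. All 11 listed B cell genes had a row, and their summed level after rescaling was 1126 to 1159 in knockout MZB, 1129 to 1193 in wild-type MZB, 1066 to 1175 in knockout FoB and 1160 to 1179 in wild-type FoB. Per cell the sums were 1789 to 1983 in knockout MZB and 1297 to 1661 in wild-type MZB, without overlap. In FoB they overlapped per cell, at 665.8 to 868.9 in knockout and 747.2 to 924.4 in wild-type cells. Kdm1a, the targeted gene, averaged 5.66 ± 0.402 mRNA per cell in knockout MZB (SD, n = 2) and 7.54 ± 1.05 in wild-type MZB (SD, n = 3), and this difference did not pass the test per cell (limma, adjusted p = 0.119) but did after rescaling (adjusted p = 0.000464). Knockout FoB averaged 2.11 ± 0.220 (n = 3), against 4.96 ± 0.881 in wild-type FoB (n = 2), where Kdm1a fell by 1.12 on the log2 scale (limma, adjusted p = 4.31e-05). The summed mRNA per cell was 105590.4 and 121070.6 in knockout MZB, against 74815.0, 99800.0 and 92252.8 in wild-type MZB, so the median gene was 0.32 higher (log2) in knockout MZB. In FoB the sums overlapped, at 43561.9 to 55703.6 in knockout and 45237.0 and 56437.7 in wild-type cells, and the median gene differed by -0.05 (log2). Values are therefore given per cell and after rescaling, in which each library is divided by a trimmed mean of its log-ratios to the mean library, leaving median shifts of 0.02 in MZB and -0.01 in FoB. In bulk RNA, a change in the number of cells of some type and a change in RNA per cell cannot be told apart.

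**Figure D1:**
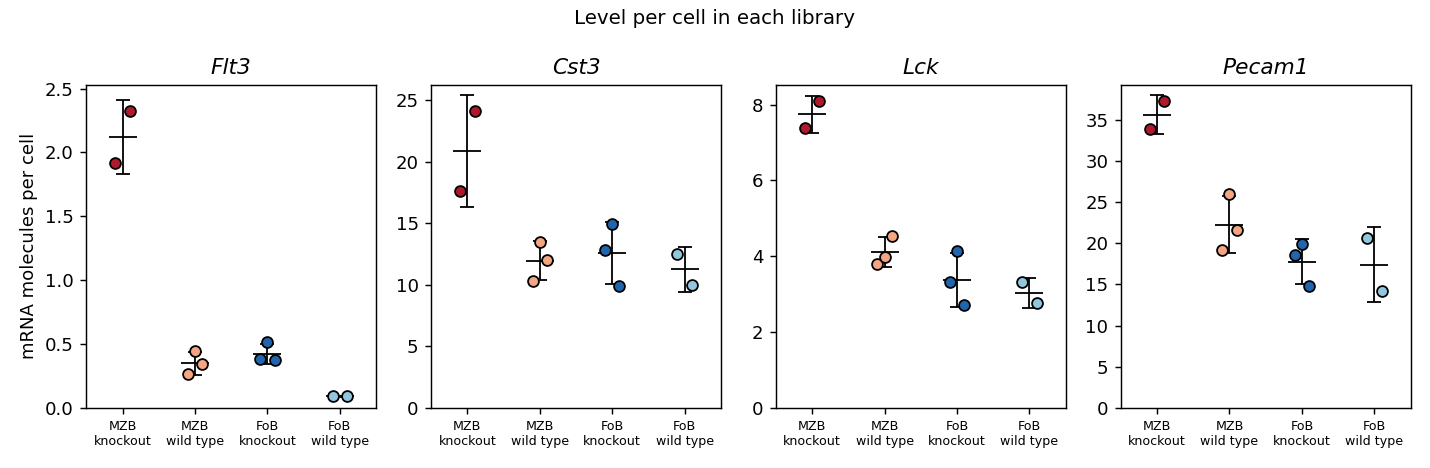
mRNA molecules per cell (vertical axis, from 0) of Flt3, Cst3, Lck and Pecam1 in each library, by group. Points are libraries and bars are the mean and SD (n = 2 or 3). The knockout MZB points lie above all other points in each of the 4 panels, and Flt3 is the gene whose knockout FoB points also lie clear of the wild-type FoB points.

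Flt3 was the scarcest of the genes and the one with the largest relative difference. It stood at 1.92 and 2.33 mRNA per cell in the knockout MZB libraries, from 118 and 156 reads, against 0.261, 0.441 and 0.346 in the wild-type MZB libraries, from 27, 34 and 25 reads. The knockout MZB libraries lay far above the wild-type ones, with a ratio of means of 6.08 per cell and 4.89 after rescaling. On the log2(value + 0.3) scale, which understates the change of low genes, the difference was 1.90 ± 0.19 (SE) per cell and 1.49 ± 0.12 after rescaling. The stated ground for choosing the genes did not use FoB, but they were chosen with earlier results of these data known. In FoB, Flt3 was at 0.381, 0.512 and 0.376 in the knockout libraries, from 39, 62 and 58 reads. The wild-type FoB libraries were at 0.0946 and 0.0892, from 12 reads each. All 3 knockout FoB libraries lay above both wild-type ones, with a ratio of means of 4.60 per cell and 4.72 after rescaling. A count of 12 reads has an exact 95% Poisson interval of 6.20 to 21.0, and the smallest knockout FoB count, 39, one of 27.7 to 53.3; these intervals cover counting error only.

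Flt3 rose in knockout FoB, by 0.88 ± 0.19 on the log2(value + 0.3) scale (SE; 95% interval 0.51 to 1.25; limma, Benjamini-Hochberg adjusted p = 0.00273). After rescaling the rise was 1.08 ± 0.12 (interval 0.83 to 1.34; limma, adjusted p = 0.00199). It was 1 of 40 genes that rose in FoB per cell, or 0.413% of all genes tested, and 1 of 44 after rescaling, or 0.454%. A further 0.299% fell per cell and 0.134% after rescaling, so that 0.712% and 0.588% were called in either direction. Knockout libraries all above wild-type ones were found for 5.09% of genes per cell and 14.9% after rescaling. The other 3 genes did not pass on either scale. The call per cell rested on both wild-type FoB libraries. Without wild-type FoB library 1 the limma adjusted p was 0.0953, and without library 2 it was 0.0984, at log2 differences of 0.89 and 0.87. After rescaling the call held with each library left out in turn (limma, adjusted p 0.00568 to 0.0265). Over all alternatives the limma adjusted p ran from 0.00015 to 0.0984. Whether the knockout difference of Flt3 differs between MZB and FoB was not tested, because the MZB libraries were used to choose the gene.

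Cst3 stood at 17.6 and 24.1 mRNA per cell in the knockout MZB libraries, against 10.3, 13.5 and 12.0 in the wild-type MZB libraries. Both knockout libraries were higher than every wild-type one, with a ratio of means of 1.75 per cell and 1.39 after rescaling. In FoB, Cst3 was at 12.8, 15.0 and 9.92 in the knockout libraries, against 12.5 and 9.96 in the wild-type libraries. The FoB groups overlapped, and the log2 difference was 0.15 per cell with a 95% interval of -0.26 to 0.55 (limma, adjusted p = 1.0). After rescaling, all 3 knockout FoB libraries (15.9 to 19.6) lay above both wild-type ones (15.7 each). That log2 difference of 0.20, with an interval of -0.02 to 0.41, did not pass the test (limma, adjusted p = 0.370), and a like share of 14.9% of all genes was placed in this way.

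Lck stood at 7.39 and 8.09 mRNA per cell in the knockout MZB libraries, against 3.80, 3.98 and 4.54 in the wild-type MZB libraries. The groups were well apart, with a ratio of means of 1.88 per cell and 1.49 after rescaling. In FoB, Lck was at 3.31, 4.13 and 2.70 in the knockout libraries, against 3.31 and 2.75 in the wild-type libraries. The FoB groups overlapped on both scales. The log2 difference was 0.13 per cell (interval -0.25 to 0.51; limma, adjusted p = 1.0) and 0.18 after rescaling (interval -0.06 to 0.42; limma, adjusted p = 0.460).

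Pecam1 was the most abundant of the genes and the one with the smallest relative difference. It stood at 33.9 and 37.3 mRNA per cell in the knockout MZB libraries, against 19.2, 26.0 and 21.6 in the wild-type MZB libraries. Both knockout libraries were higher, with a ratio of means of 1.60 per cell and 1.28 after rescaling. In FoB, Pecam1 was at 18.6, 20.0 and 14.8 in the knockout libraries, against 20.6 and 14.2 in the wild-type libraries. The FoB groups overlapped on both scales, with a log2 difference of 0.04 per cell (interval -0.37 to 0.45; limma, adjusted p = 1.0) and 0.09 after rescaling (interval -0.09 to 0.28; limma, adjusted p = 0.625).

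**Figure D2:**
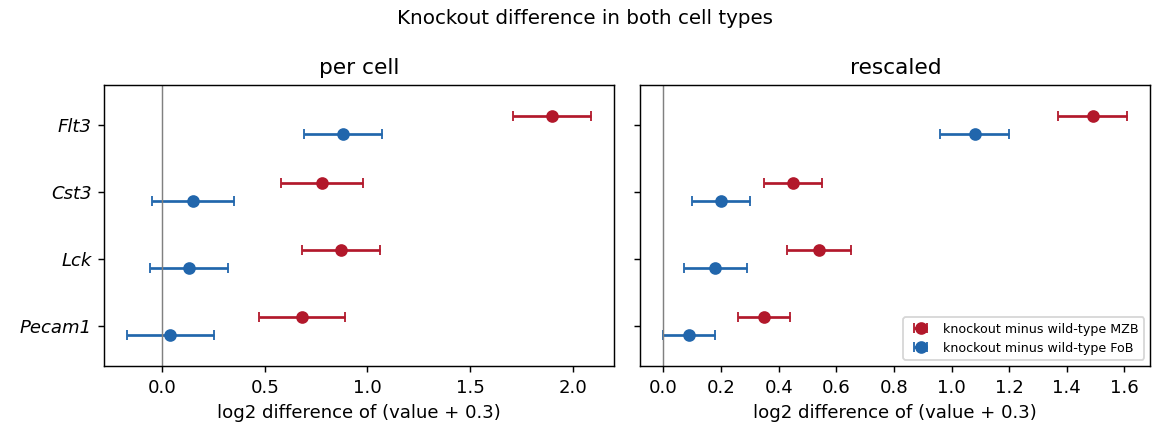
Knockout minus wild-type difference of each gene on the log2(value + 0.3) scale (horizontal axis), per cell (left) and after rescaling (right), for MZB (red) and FoB (blue). Points are limma estimates and bars are SE. Flt3 lies furthest to the right in both cell types, and the FoB points of Cst3, Lck and Pecam1 lie between 0.04 and 0.20.

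All 4 genes were higher in both knockout MZB libraries than in every wild-type MZB library on both scales, as were 56.9% of all genes per cell and 24.3% after rescaling. Nothing is read from this, since the genes were chosen for it. The rescaled differences of 1.49 for Flt3, 0.45 ± 0.10 for Cst3, 0.54 ± 0.11 for Lck and 0.35 ± 0.09 for Pecam1 (log2, SE) stand against a median gene at 0.02. The per-cell differences of 1.90, 0.78 ± 0.20, 0.87 ± 0.19 and 0.68 ± 0.21 stand against a median gene at 0.32.

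The order of the cell types depended on the scale for 3 of the genes. Per cell, wild-type MZB against wild-type FoB gave ratios of means of 3.81 for Flt3, 1.06 for Cst3, 1.35 for Lck and 1.28 for Pecam1, and the libraries of Cst3 and Pecam1 overlapped. After rescaling, the ratios were 2.02 for Flt3, 0.576 for Cst3, 0.739 for Lck and 0.698 for Pecam1, with no overlap for any of them. Between the wild-type groups, Flt3 was thus higher in MZB on both scales, while Lck was higher in MZB per cell and lower after rescaling. The order of the groups by mean Flt3 level was the same on both scales, with knockout MZB highest, then knockout FoB, wild-type MZB and wild-type FoB. Per cell, the Flt3 libraries of knockout FoB and wild-type MZB overlapped, at 0.376 to 0.512 and 0.261 to 0.441. After rescaling they did not, at 0.562 to 0.672 and 0.231 to 0.2999. For Cst3, Lck and Pecam1, knockout MZB was highest per cell. After rescaling, wild-type MZB was lowest for each of these 3 genes, while the knockout MZB values lay below those of both FoB groups for Cst3 and Pecam1 and overlapped knockout FoB for Lck. These are descriptions, since MZB libraries chose the genes.

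**Figure D3:**
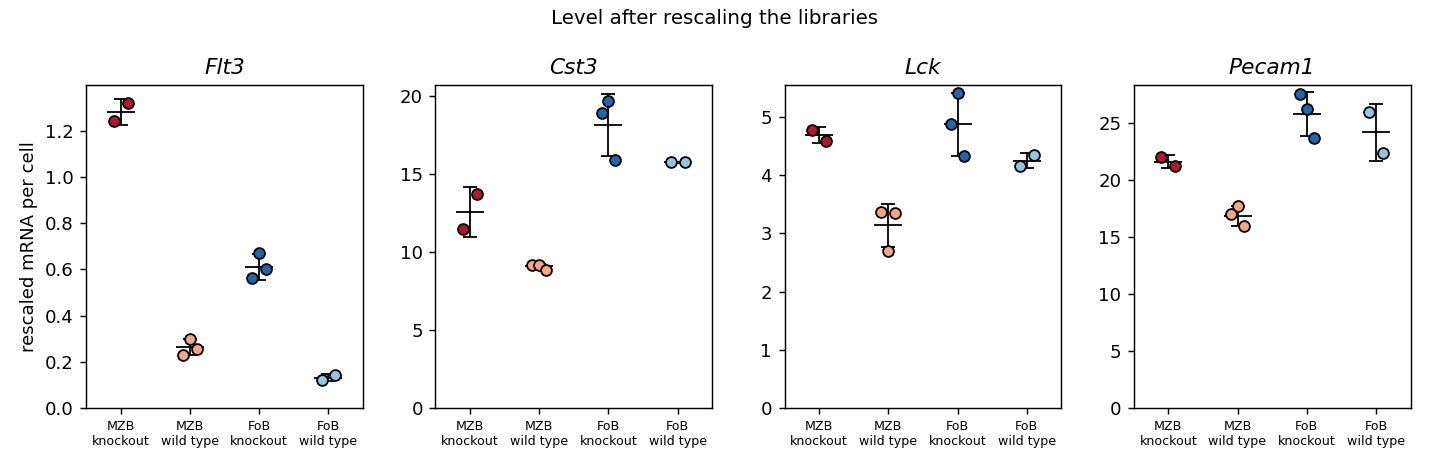
Rescaled level (vertical axis, from 0; mRNA per cell after division by the library factor) of Flt3, Cst3, Lck and Pecam1 in each library, by group. Points are libraries and bars are the mean and SD (n = 2 or 3). Wild-type MZB is the lowest group for Cst3, Lck and Pecam1, and wild-type FoB for Flt3.

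Set among all genes, whose values act as levels per length, Pecam1 lay above 95.3% of genes in knockout MZB, 93.7% in wild-type MZB, 95.9% in knockout FoB and 95.4% in wild-type FoB. Cst3 lay above 84.6% to 93.4% of genes over the 4 groups, and Lck above 49.2% to 66.6%. Flt3 lay above 18.5% of genes in knockout MZB, 0.5% in wild-type MZB, 7.4% in knockout FoB and 1.0% in wild-type FoB. Cst3 and Pecam1 were thus among the more abundant mRNAs of wild-type B cells of both types, and Flt3 among the least abundant in the table.

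Other markers of the same lineages were few in the table. Of 15 dendritic cell genes, 5 had a row, namely Flt3, Cst3, Naaa, Sirpa and Ly75, while Itgax, Zbtb46, Xcr1, Clec9a and Siglech were among those without one. Of the 3 besides Flt3 and Cst3, 0 passed the limma test in either direction in MZB or FoB, or with limma voom on the reads, and 1 had an unadjusted p under 0.05, in MZB per cell. Of all genes, an unadjusted p under 0.05 was found in MZB for 38.7% per cell and 22.9% after rescaling, and in FoB for 3.85% per cell and 14.6% after rescaling. Of all genes, 13.3% rose and 0.702% fell in MZB per cell (14.0% in either direction), and 3.36% rose and 1.9% fell after rescaling (5.26% in either direction). Per cell, their summed level was 11.3 to 13.7 in knockout MZB and 8.13 to 11.2 in wild-type MZB, and 3.001 to 3.92 in knockout FoB and 2.68 to 3.64 in wild-type FoB. The MZB groups did not overlap per cell. After rescaling they did, with sums of 7.30 to 7.78 in knockout MZB and 7.20 to 7.71 in wild-type MZB, beside 4.81 to 5.14 in knockout FoB and 4.23 to 4.57 in wild-type FoB. Of 23 T cell genes, Lck and Cd2 had a row, and the defining T cell receptor complex genes Cd3d, Cd3e, Cd3g and Cd247 did not. Cd2, an adhesion receptor that mouse B cells also carry, differed by 0.38 in MZB and -0.23 in FoB (log2 per cell) and did not pass in either. Of 18 endothelial genes Pecam1 alone had a row. Genes without a row were not analysed here, so their levels are not known.

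Markers of other cell types that moved with the knockout were also counted. Of all genes, 13.3% rose in MZB per cell and 3.36% after rescaling, and 0.413% and 0.454% rose in FoB. Knockout libraries all above wild-type ones were found for 56.9% of genes in MZB per cell and 24.3% after rescaling. In FoB these shares were 5.09% and 14.9%. Counts from lists with so few rows are no result about a lineage. Of 13 macrophage and monocyte genes, 3 had a row, and 1 of these, Ly6c2, a surface protein of monocytes that several lymphocyte types share, rose. It averaged 4.04 ± 1.51 in knockout MZB (SD, n = 2) and 0.235 ± 0.145 in wild-type MZB (SD, n = 3; log2 difference 3.01, limma adjusted p = 2.22e-21). After rescaling the difference was 2.52 (limma, adjusted p = 0.0015), from 40 and 75 reads in knockout and 2, 4 and 6 in wild-type MZB. Ly6c2 also rose in FoB, to 2.60 ± 0.434 in knockout (SD, n = 3), against 0.514 ± 0.392 in wild-type cells (SD, n = 2; log2 difference 1.91, limma adjusted p = 7.47e-11). After rescaling that difference was 2.12 (limma, adjusted p = 0.00673), from 57 to 102 reads in knockout and 22 and 7 in wild-type FoB. The summed level of the 3 genes per cell was 7.35 to 10.3 in knockout MZB and 3.23 to 5.79 in wild-type MZB, and 3.57 to 4.17 in knockout FoB and 1.46 to 2.15 in wild-type FoB. After rescaling the sums were 4.76 to 5.84 in knockout MZB and 2.20 to 4.27 in wild-type MZB. In FoB they were 4.68 to 6.47 in knockout and 2.31 to 2.70 in wild-type cells, again without overlap in either cell type. These sums include Ly6c2, at a rescaled 1.92 and 2.90 in knockout MZB and 0.078 to 0.28 in wild-type MZB. In FoB its rescaled level was 2.82 to 4.83 in knockout and 0.37 to 0.99 in wild-type cells. Ly6c2 was the 1 gene of the 3 with an unadjusted p under 0.05, in both cell types and on both scales. The sums are thus no result about the list. Adgre1, Csf1r and Lyz2 had no row. Of 8 natural killer cell genes 2 had a row, and Klrd1, which encodes CD94, rose in MZB per cell (log2 1.30; limma, adjusted p = 1.64e-06), from 15 to 21 reads in knockout and 2 to 10 in wild-type libraries. After rescaling its log2 difference of 0.92, a ratio of means of 2.95 with both knockout libraries higher, did not pass (limma, adjusted p = 0.125), while limma voom on the reads called it. The sum of both genes per cell was 2.32 to 2.48 in knockout MZB and 1.33 to 1.93 in wild-type MZB, and 0.316 to 0.482 in knockout FoB and 0.243 to 0.266 in wild-type FoB. After rescaling the MZB sums overlapped, at 1.32 to 1.60 in knockout and 0.904 to 1.42 in wild-type cells, and the FoB sums did not, at 0.415 to 0.772 in knockout and 0.334 to 0.383 in wild-type cells. These FoB sums include Klrd1, with 5, 2 and 15 reads in the knockout FoB libraries and 0 and 1 in the wild-type ones. Klrd1 did not pass in FoB (limma, adjusted p = 0.181 per cell and 0.279 after rescaling). The sums are thus no result about the natural killer list. Of 6 platelet genes Itgb3, the integrin beta 3 chain, was the one with a row. It rose in MZB (2.25 ± 0.211 mRNA per cell in the knockout and 0.971 ± 0.0950 in wild-type cells; SD, n = 2 and 3; limma, adjusted p = 3.09e-05, and 0.00236 after rescaling). In FoB it averaged 1.40 ± 0.13 in knockout and 1.74 ± 0.24 in wild-type cells (SD, n = 3 and 2), both above wild-type MZB. All knockout FoB libraries lay below the wild-type ones, without passing the test. Of 6 neutrophil and 7 erythroid genes 0 had a row. The part of other cells in the differences of the 4 genes was not tested.

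Most B cell genes did not pass the test. Of 11, 1 rose in MZB per cell, where 13.3% of all genes rose. This was Fcer2a, which encodes the sort marker CD23, at 33.7 ± 1.76 in knockout and 13.3 ± 3.85 in wild-type MZB (SD, n = 2 and 3; limma, adjusted p = 1.40e-06). Its level in FoB was higher, at 91.0 ± 9.3 in knockout and 93.7 ± 18.9 in wild-type cells (SD, n = 3 and 2). After rescaling, where 3.36% of all genes rose and 1.9% fell in MZB, Fcer2a also rose (limma, adjusted p = 0.00318). Ms4a1, which encodes CD20, and Cr2, which encodes CD21, fell after rescaling, by 0.53 and 0.39 on the log2 scale (limma, adjusted p = 0.0236 and 0.0310). In FoB 0 of the 11 passed by limma on either scale or by limma voom, with 0 and 2 at an unadjusted p under 0.05 per cell and after rescaling.

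None of the measured signalling partners of Flt3 passed the test. Of 20 listed genes, 15 had a row, and of the 14 besides Flt3, which include adaptors, STAT factors and Cbl proteins, 0 passed in MZB or FoB by limma on either scale or by limma voom. At an unadjusted p under 0.05 there were 8 of the 14 in MZB and 1 in FoB per cell, against 38.7% and 3.85% of all genes, and 5 and 4 after rescaling, against 22.9% and 14.6%. Their median log2 difference in MZB was 0.41 per cell and 0.10 after rescaling, beside 0.32 and 0.02 for all genes. For Cst3, 9 of 15 cystatin and cathepsin genes had a row, and 0 of the 8 others passed in either cell type by limma or limma voom, with medians of 0.32 per cell and -0.01 after rescaling in MZB. Of these 8, 1 had an unadjusted p under 0.05 in MZB on each scale, and in FoB 0 did per cell and 1 after rescaling. Cstb, the other cystatin with a row, was below Cst3 in every group, at 7.32 against 20.9 in knockout MZB, 5.58 against 12.0 in wild-type MZB, 2.99 against 12.6 in knockout FoB and 2.79 against 11.3 in wild-type FoB (mean mRNA per cell). Ctss, the cathepsin that trims the invariant chain in antigen-presenting cells, was the most abundant of the 7 cysteine proteases with a row in each group, at 135.6 ± 13.4 in knockout MZB and 107.2 ± 20.0 in wild-type MZB (SD, n = 2 and 3).

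Among the Src family kinases, Lck was far below Blk, the B cell kinase of the family, and Lyn, on the per-length scale of mRNA per cell. Blk averaged 143.1 ± 5.13 in knockout MZB and 122.8 ± 13.3 in wild-type MZB (SD, n = 2 and 3), and 34.7 ± 5.01 in knockout FoB and 43.1 ± 7.71 in wild-type FoB (SD, n = 3 and 2). Lyn averaged 62.1 ± 7.72 in knockout MZB and 50.7 ± 8.09 in wild-type MZB, and 21.6 ± 2.95 in knockout FoB and 22.7 ± 3.90 in wild-type FoB (SD, n as for Blk). Lck averaged 7.74 ± 0.498 in knockout MZB and 4.11 ± 0.387 in wild-type MZB, and 3.38 ± 0.714 in knockout FoB and 3.03 ± 0.394 in wild-type FoB. Of the 13 genes besides Lck on the list of Src kinases and their regulators, 2 rose in MZB per cell, a share near the 13.3% of all genes. These were the myeloid kinase Fgr, at 9.03 ± 0.474 in knockout and 5.09 ± 0.294 in wild-type MZB (SD, n = 2 and 3; limma, adjusted p = 0.00188), and the Src-activating adaptor Unc119 (log2 0.65; limma, adjusted p = 0.0198). After rescaling, where 3.36% of all genes rose and 1.9% fell in MZB, Fgr remained called (log2 0.47; limma, adjusted p = 0.0120). The kinase Fyn and the phosphatase Ptpn22 fell in MZB on that scale, by 0.37 and 0.27 log2 (limma, adjusted p = 0.0246 and 0.0394). Ptpn22 also fell in FoB after rescaling, where 0.134% of all genes fell, by 0.44 (limma, adjusted p = 0.0102), and by limma voom. Per cell, 0 of the 13 passed in FoB by limma, with 1 at an unadjusted p under 0.05.

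Pecam1 stood among other inhibitory receptors of B cells. It made up 5.67% of the summed level of 11 receptors with a row in knockout MZB, 4.65% in wild-type MZB, 7.01% in knockout FoB and 6.51% in wild-type FoB. Siglecg and Cd22, sialic acid receptors that restrain B cell receptor signals, were the most abundant in MZB of both genotypes. Of the 13 genes besides Pecam1 on the list of these receptors and their phosphatases, 3 rose and 1 fell in MZB per cell, where 13.3% of all genes rose and 0.702% fell. Cd5, a receptor of T cells and B-1 cells, was at 1.33 ± 0.0551 in knockout and 0.370 ± 0.163 in wild-type MZB (SD, n = 2 and 3; limma, adjusted p = 1.71e-07), Cd72 differed by 0.73 and Pirb by 0.68 (log2; limma, adjusted p = 0.0165 and 0.0147). Lilrb4a fell by 0.83 on the log2 scale (limma, adjusted p = 0.00156). After rescaling Cd5 and Cd72 rose, and Lilrb4a and Lair1 fell, where 3.36% of all genes rose and 1.9% fell. In FoB 0 of the 13 passed by limma on either scale or by limma voom, with 1 at an unadjusted p under 0.05 on each scale.

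Of 26 transcription factors of the blood lineages, 18 had a row, and 2 rose in MZB per cell and 0 fell. This share per cell lay near the 13.3% of all genes that rose, and is no result about the list. Gfi1, the repressor that works with LSD1, was at 0.858 ± 0.00267 in knockout and 0.265 ± 0.0603 in wild-type MZB (SD, n = 2 and 3; limma, adjusted p = 2.08e-05). It reached the filter level of 0.3 in both knockout MZB libraries and in wild-type MZB library 3 (0.327) alone. Gfi1 thus met the filter through the group where it was high, which limits what its p-value shows. Id3, which holds back E proteins, was at 12.9 ± 1.16 in knockout and 5.75 ± 0.508 in wild-type MZB (SD, n = 2 and 3; limma, adjusted p = 1.19e-05). Both also rose after rescaling, where Bcl11a fell by 0.33 on the log2 scale (limma, adjusted p = 0.0418). After rescaling 3.36% of all genes rose and 1.9% fell in MZB, and 5.26% were called in either direction, beside 3 of the 18. By limma voom 5 of the 18 were called in MZB, among them Id3, Gfi1 and Bcl11a, where 1106 of 9690 genes were. Counts this small were not tested as a set. In FoB 0 of the 18 passed by limma on either scale or by limma voom, with 0 and 2 at an unadjusted p under 0.05 per cell and after rescaling. Pax5 and Ebf1 did not pass in either cell type.

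Likeness of pattern between the genes depended on the scale. Over the 10 libraries, after rescaling, the log2 values of Cst3 and Pecam1 had a Pearson r of 0.951, Cst3 and Lck 0.833, and Lck and Pecam1 0.819, while Flt3 had 0.183 with Cst3, 0.231 with Pecam1 and 0.531 with Lck. Per cell all pairs lay between 0.855 and 0.948. These values describe 10 libraries that fall into 4 groups and, per cell, share each library's total, and they include the MZB values that chose the genes. Among 5167 genes with a mean of at least 3 mRNA per cell, those most like Flt3 after rescaling were the RNA editing enzyme Apobec1 (r = 0.960), the GM-CSF receptor chain Csf2ra (0.928), Spata13 (0.927), the lipid carrier Apoe (0.904) and Fgr (0.899). Of these 5, 3 also rose in knockout FoB after rescaling, where 0.454% of all genes rose. Apoe stood at 16.8 ± 0.908 in knockout and 10.4 ± 1.13 in wild-type FoB (SD, n = 3 and 2; limma, adjusted p = 0.00453). Csf2ra stood at 5.69 ± 0.802 in knockout and 3.20 ± 0.264 in wild-type FoB (limma, adjusted p = 0.00673). Apobec1 stood at 8.31 ± 0.334 in knockout and 6.32 ± 0.111 in wild-type FoB (limma, adjusted p = 0.0306). Per cell they did not pass in FoB, and being picked for likeness to Flt3 they are no independent result.

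Those most like Cst3 were Mapkapk2 (0.997), Atp6v0d1 (0.990), Gnas (0.981), Tob2 (0.979) and Marcksl1 (0.978). Those most like Lck were Map3k19 (0.952), Csrp1 (0.939), Samd1 (0.938), Rbm43 (0.934) and Zfp110 (0.920). Those most like Pecam1 were the DNA sensing adaptor Sting1 (0.989), Nudt9 (0.981), Prkce (0.981), Zfp592 (0.974) and Ogdh (0.972). The choice of scale changed most of these names, since per cell the 5 genes most like each shared 0 names with the rescaled 5 for Flt3 and Lck, 1 for Cst3 and 2 for Pecam1.

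The genes lie on separate chromosomes (GRCm38.p6): Flt3 on 5, 147330741 to 147400489, Cst3 on 2, 148871722 to 148875512, Lck on 4, 129548344 to 129573641, and Pecam1 on 11, 106654213 to 106715281. Flt3 overlaps the predicted gene Gm26597 and Lck overlaps Mir8119, so reads there could be assigned to either, as the sources used here do not say whether counting used strand. Lck lies 6.98 Mb from Kdm1a itself. Within 100 kb, 1 of 13 genes near Flt3 had a row, Pan3, and it did not pass (log2 0.22 in MZB). Near Cst3 0 of 6 had a row. Near Lck 10 of 16 had a row, with log2 differences per cell from 0.10 to 1.01 in MZB, and 1 rose, where 13.3% of all genes did. That gene, Marcksl1, lay 32.4 kb away and stood at 7.24 ± 1.04 in knockout and 3.47 ± 0.846 in wild-type MZB (SD, n = 2 and 3; limma, adjusted p = 9.00e-05, and 0.00435 after rescaling). Hdac1, a histone deacetylase found in LSD1 complexes, lay 5.7 kb from Lck and differed by 0.50 without passing (limma, adjusted p = 0.0703).

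Near Pecam1 6 of 7 genes had a row. Of these, Milr1, an inhibitory receptor of mast cells 35.4 kb away, rose in MZB per cell (log2 0.75; limma, adjusted p = 0.00337), as did Tex2 (0.52; limma, adjusted p = 0.0480). The row of the microRNA gene Mir3064 fell by 0.64 (limma, adjusted p = 0.0464), from 70 and 103 reads in knockout and 140 to 217 in wild-type MZB. Mir3064 begins 67.4 kb from Pecam1 and Ddx5 begins 65.1 kb from it. The libraries were poly(A)-selected, so these reads need not come from the microRNA. Whether they belong to Ddx5 was not tested. Of all genes, 13.3% rose and 0.702% fell in MZB per cell. After rescaling 0 of the 6 passed by limma, with Milr1 at an adjusted p of 0.0509 and 3 at an unadjusted p under 0.05, and by limma voom Milr1, Ddx5 and Mir3064 passed. In FoB 0 of the 17 neighbours passed by limma or limma voom, with 1 per cell and 2 after rescaling at an unadjusted p under 0.05.

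**Figure D4:**
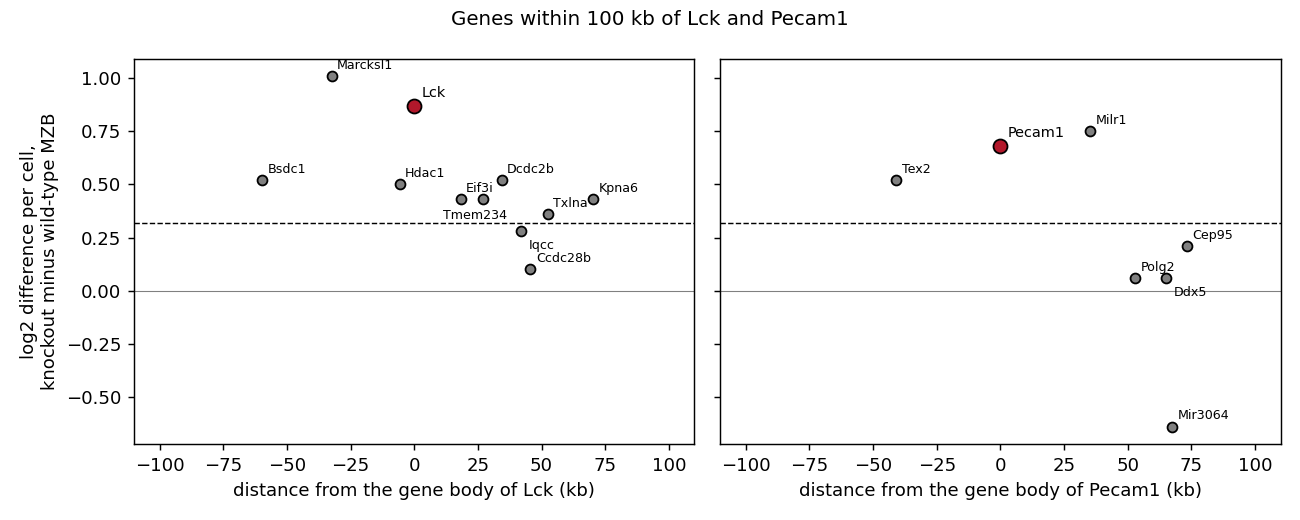
Log2 difference per cell between knockout and wild-type MZB (vertical axis) of the table's genes within 100 kb of Lck (left) and Pecam1 (right), against their distance from its gene body in kb (horizontal axis). The red point is Lck or Pecam1, grey points are neighbours and the dashed line is the median of all genes, 0.32. Marcksl1 and Milr1 are the neighbours that lie above Lck and Pecam1 in their panels.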

How the data were processed

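Values in the deposited table are a signal, mRNA per cell by its header, with 1 per gene in each library. STAR and mm10 are named, per the submitters' processing notes. RNA of 50000 cells per sample was made into stranded poly(A)-selected libraries, per the labels' protocols; for the counter, its strand setting, the gene filter and the factor from reads to molecules, nothing is given in the sources used here. Of 9690 genes, 9681 matched a symbol by Entrez identifier, and 0 columns were unassigned. Whole reads were recovered for 100% of genes (largest deviation 2.9e-05 reads, tolerance 0.02). The step of 1 read followed exon length (r = 0.906 across 9537 genes, on log scales), so values act as levels per length.

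The test was limma (version 3.58.1, under R 4.3.3), fitted on log2(value + 0.3) to the 10 libraries together, with a coefficient for each group and a trend, two-sided, with Benjamini-Hochberg adjustment over 9690 genes and a threshold of 0.05. Genes needed 0.3 in at least 2 libraries. Prior degrees of freedom were 86.9 per cell and 4.97 rescaled. The fit treats an error common to a whole library as separate errors of its genes, which can make p-values per cell too small. Rescaling trimmed 0.3 by ratio and 0.05 by level and gave factors of 0.624 to 1.761. The steps were tested on simulated data. Genes, lists and motifs were chosen with earlier results of these data known. The text names the 4 genes, Kdm1a, up to 4 list genes per list with the smallest p called in MZB and 2 in FoB, the 5 most alike genes of each, and neighbours within 100 kb. List genes called only after rescaling, and Cd2, Cstb, Ctss, Blk, Lyn, Siglecg, Cd22, Pax5 and Ebf1, were named after their values were seen. Tables were made with pandas 2.3.3 and plots with matplotlib 3.10.9, under Python 3.11.15. Alternatives were other pseudocounts, filters and scales, the compared groups alone, no trend, a replicate block, and each library left out. limma voom on recovered reads, and rescaling with a library left out or with the block, were added after seeing the data. 1 gene of the lists is not reported here.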

Additional observations from a re-analysis of the deposited data

How the results depend on the processing

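Groups of 2 and 3 libraries, and 12 reads of Flt3 in each wild-type FoB library, limit the precision. Flt3 stayed higher in knockout FoB under every alternative run. Its log2 difference was 1.44 with pseudocount 0.1 and 2.2 with limma voom, but 0.38 with pseudocount 1 (limma, adjusted p = 0.0571). Leaving out libraries in turn gave 0.79 to 0.92, with the call lost without either wild-type FoB library. For Cst3, Lck and Pecam1, 0 alternatives gave a call in FoB by limma, with adjusted p of 0.258 or more. The 69 genes called in FoB became 116 with the replicate block and 107 with limma voom on recovered reads, and 39 to 106 with libraries left out in turn, the extremes being without wild-type library 1 and without knockout library 3. The 1356 genes called in MZB became 510 after rescaling, 2078 with pseudocount 1, and 269 to 2791 with libraries left out, with 269 without knockout library 2, 484 without wild-type library 1 and 2791 without wild-type library 2. The MZB difference of Flt3 was 1.49 after rescaling, with and without the block, 2.32 with pseudocount 0.1, 1.21 with pseudocount 1 and 2.29 with voom. After rescaling, with voom, and with rescaling plus block, it was 0.45, 0.48 and 0.44 for Cst3, 0.54, 0.60 and 0.59 for Lck, and 0.35, 0.37 and 0.31 for Pecam1. With libraries left out it stayed at 1.78 to 2.03 for Flt3, 0.56 to 1.0 for Cst3, 0.81 to 0.94 for Lck and 0.58 to 0.80 for Pecam1. By mean level among the 4 groups, wild-type MZB moved to rank 4 after rescaling, against rank 3 per cell for Cst3 and 2 for Lck and Pecam1. The cause of these moves was not tested.

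Libraries share replicate numbers across genotypes, and the labels do not say whether the numbers pair them. The correlations of same-numbered deviations from the group means were 0.205 and 0.16 in MZB and 0.046 and -0.061 in FoB. In a group of 2 libraries these deviations mirror each other, so the correlations cannot decide on pairing. The main fit used no pairs, and the replicate block was run as an alternative. With the replicate block, the FoB log2 difference per cell was 0.92 for Flt3 (limma, adjusted p = 0.00015), 0.30 for Cst3, 0.27 for Lck and 0.17 for Pecam1. With the block after rescaling, Flt3 was at 1.09 (limma, adjusted p = 0.0358), against 1.08 without it (limma, adjusted p = 0.00199). The block thus gave Flt3 a smaller p per cell and a larger one after rescaling, and changed no call of the 4 genes.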
